A study of Mus musculus with 20 samples.

Results

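Blood of Lyn-/-Ifnar1-/- mice was set beside blood of WT mice, to see which changes of the lupus-like disease of Lyn-deficient mice remained without type I IFN signalling and which genes fell below the WT level. Peripheral blood RNA of 4 Lyn-/-Ifnar1-/- mice and 4 WT mice was used, which are 8 of the 20 libraries of the study. A gene entered the comparison when it reached at least 1 RPKM (reads scaled to gene length and library size) in at least 4 of these 8 libraries, which 8238 of the 9228 listed genes did. Lyn-/-Ifnar1-/- mice lacked the Src family kinase Lyn and the receptor subunit Ifnar1, Lyn-/- mice lacked Lyn alone, and WT mice carried neither deletion. All were female C57BL/6 mice of 22 to 23 weeks, with 4 mice per genotype and 1 library per mouse. The deletions are germline and so present in every cell, Lyn-/-Ifnar1-/- mice came from crosses of the single strains, and WT mice were purchased, so that strain differences other than the deletions cannot be told apart from genotype. The 4 libraries of Lyn-/- mice are given beside the values. No disease measure of these mice is used, so direct effects of losing Lyn and effects of the disease cannot be told apart.

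Type I IFNs are cytokines induced by nucleic acid sensors such as the endosomal Toll-like receptors. They bind the receptor made of Ifnar1 and Ifnar2, whose kinases Jak1 and Tyk2 phosphorylate Stat2. It joins a complex with Irf9 that binds the IFN-stimulated response element (ISRE) in the promoters of IFN-stimulated genes (ISGs). Healthy mice keep a low tonic level of this signalling, and many patients with systemic lupus erythematosus show high ISG levels in blood. Lyn restrains B cell and myeloid activation by phosphorylating inhibitory receptors, and mice without it form autoantibodies.

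Lyn was low in every mouse labelled Lyn-/-Ifnar1-/-. It stood at 10.1, 10.02, 2.42 and 7.49 RPKM in Lyn-/-Ifnar1-/- mice, 10.2, 8.404, 9.49 and 11.9 RPKM in Lyn-/- mice and 36.5, 32.5, 36.9 and 32.5 RPKM in WT mice (exact two-sided permutation test of Lyn-/-Ifnar1-/- against WT mice, p = 0.0286, which is as low as this test can go with 4 mice per group). Ifnar1 stood at 10.6, 10.1, 6.23 and 7.12 RPKM in Lyn-/-Ifnar1-/- mice, 6.17, 5.08, 5.12 and 5.17 RPKM in Lyn-/- mice and 6.11, 5.11, 6.07 and 5.72 RPKM in WT mice. Its whole-gene level in each Lyn-/-Ifnar1-/- mouse lay above all mice of both other genotypes (exact two-sided permutation test, p = 0.0286 against WT and 0.0286 against Lyn-/- mice). Reads of a whole gene include those outside a deleted part, so Ifnar1 checks nothing about the allele and this genotype rests on the labels. Lyn lies on chromosome 4 (3678068 to 3791612) and Ifnar1 on chromosome 16 (91485032 to 91510523 of GRCm38.p6). Irf5, which encodes another transcription factor of the IFN pathway and was not deleted in these groups, stood at 25.9, 25.6, 14.4 and 21.9 RPKM in Lyn-/-Ifnar1-/- mice, 40.4, 31.3, 33.9 and 27.8 RPKM in Lyn-/- mice and 21.7, 20.8, 20.8 and 20.1 RPKM in WT mice (exact two-sided permutation test of Lyn-/-Ifnar1-/- against WT mice, p = 0.886).

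Lyn-/-Ifnar1-/- mice 3 and 4 stood apart from mice 1 and 2 in their RPKM sums and in the reads behind a median gene, but not in total reads. The RPKM of all listed genes summed to 770601 in mouse 1 and 680012 in mouse 2, but to 2155897 in mouse 3 and 1520803 in mouse 4, against 684313 to 978962 in WT mice. The 3 hemoglobin genes listed held 62.9% to 66.7% of the RPKM in Lyn-/-Ifnar1-/- mice and 65.5% to 69.0% in WT mice. The 56 erythroid genes listed summed to 204330 RPKM in mouse 3 and 108519 in mouse 4, beside 51057 in mouse 1 and 37339 in mouse 2, and to between 39106 and 66912 RPKM in WT mice. Whole reads recovered from the RPKM steps came to 1461870, 1875322, 1525214 and 1979449 in Lyn-/-Ifnar1-/- mice 1 to 4 and to between 1741571 and 2003610 per WT mouse. The median gene held 30, 43, 11 and 22 reads in Lyn-/-Ifnar1-/- mice 1 to 4, and 32 to 49 reads in WT mice. The RPKM of Lyn-/- mice summed to 670185 to 1375300, and their erythroid genes to 56720 to 140437 RPKM. Their median gene held 23 to 39 reads. Lyn-/-Ifnar1-/- mouse 4 lay within the Lyn-/- range of erythroid sums and outside it in RPKM sum and median reads. Mouse 3 lay outside all these ranges. Of the listed genes, 11, 8, 189 and 44 were at 0 in the 4 Lyn-/-Ifnar1-/- mice, and 4 to 16 in WT mice. Low values of mouse 3 therefore carry the largest counting error, and the main counts of calls are given with and without mice 3 and 4.

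On log2(RPKM + 0.5), 433 genes were higher (5.26% of those tested) and 456 were lower (5.54%) in Lyn-/-Ifnar1-/- than in WT mice. A gene was called when its adjusted p in limma lay under 0.05, and a fold change is given with its standard error (SE, 4 mice per group) on this log2 scale, which understates the change of genes with low RPKM. Without mice 3 and 4, 692 were higher and 545 lower, and 748 of the 889 genes called in all 8 libraries were called in the same direction. The counts fell to 174, 193, 229 and 161 higher and 205, 251, 268 and 208 lower genes without WT mouse 1, 2, 3 or 4, and to 265 higher genes without Lyn-/-Ifnar1-/- mouse 4. Scaling each library to the same RPKM sum, in place of the TMM factors of the authors, left 7 genes higher and 123 lower, so that 5.38% of the calls were higher, against 48.7% under TMM. Setting the sum outside the hemoglobin genes equal left 7 higher and 172 lower, with 3.91% of the calls higher. These scalings moved the median of all genes by -0.38 and -0.48 on the log2 scale, against -0.0015 under TMM. Changes are therefore given relative to the bulk of the genes. Lyn-/- mice had 1681 genes (20.4%) above WT and 1360 (16.5%) below it. At equal sums these counts were 803 and 811. At equal sums outside hemoglobin they were 631 and 3402, with most calls below WT. This comparison shares the WT libraries with the one above, so its values stand beside each gene and no overlap of the calls is given.

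The 12 largest falls among genes whose groups do not overlap were Irf7, Ifi27l2a, Rtp4, Ifi27l1, Ly6d, Usp18, Cr2, Ifit1, Vpreb3, Tnfrsf13c, Blnk and Isg15, with log2 fold changes from -4.52 to -2.77. Of these, 6 are on the type I ISG list and 4 on the B cell list. The 12 largest rises were Erdr1, Dpep2, Fabp4, Apol11a, Pparg, Stfa2l1, Apoc2, Ache, Hmox1, Tgm2, Lpl and Ccnb2, from 4.48 to 1.93. The calls of Apol11a and Ccnb2 were lost without Lyn-/-Ifnar1-/- mouse 4 or any 1 WT mouse (adjusted p up to 0.0982 and 0.139), and that of Ache without WT mouse 1 or 4 (up to 0.0563). Rtp4, Usp18 and Cr2 passed the filter only through their WT levels, and Erdr1 and Lpl only through their Lyn-/-Ifnar1-/- levels, so their ranks are a description.

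Promoters of several ISGs that fell hold the core of the ISRE, here 2 blocks of GAAA with 2 bases of any kind between them, read on either strand within 250 bases before the start site. These stretches are shown because they carry that core in ISGs that were lower in Lyn-/-Ifnar1-/- than in WT mice. They are RefSeq sequences of GRCm38.p6 on the strand of the gene, 5′ to 3′, and capitals mark the GAAA blocks or, for a core on the other strand, the TTTC blocks.
Isg15, chr4:156200850-156200921, minus strand: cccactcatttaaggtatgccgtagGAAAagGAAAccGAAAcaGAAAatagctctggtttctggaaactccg
Oas1a, chr5:120907526-120907570, minus strand: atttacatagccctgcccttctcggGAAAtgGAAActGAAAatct
Ifit1, chr19:34640760-34640838, plus strand: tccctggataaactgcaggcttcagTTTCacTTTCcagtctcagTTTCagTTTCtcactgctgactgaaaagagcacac
Oas3, chr5:120777700-120777759, minus strand: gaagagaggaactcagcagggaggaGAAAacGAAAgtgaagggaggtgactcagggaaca
Slfn8, chr11:83020824-83020883, minus strand: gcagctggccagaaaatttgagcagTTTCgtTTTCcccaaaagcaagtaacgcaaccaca
Trim30a, chr7:104465195-104465254, minus strand: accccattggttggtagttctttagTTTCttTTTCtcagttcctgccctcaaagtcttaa
The promoters of Isg15 (3 overlapping cores), Oas1a and Ifit1 (2 each) hold more than 1 core. The core was found in 16 of 48 ISGs tested that had a promoter in the table (33.3%), in 11 of the 26 that were lower than WT (42.3%) and in 5 of the 22 others (22.7%). It was found in 236 of 6313 genes tested (3.74%) and in 936 of all 27025 promoters (3.46%). A match is a run of letters and not a shown binding site, and its absence, as in the window of Irf7, says only that these letters are not there.

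Many type I ISGs fell below the WT level. Of 80 genes on a textbook list 68 were in the table and 61 were tested, of which 32 were lower and 2 were higher in Lyn-/-Ifnar1-/- than in WT mice, with a median log2 fold change of -0.95. Of the 61, 6 passed the filter only through their WT levels, so the share is a description. In the same fit, 5.54% of all genes were lower. Without mice 3 and 4 the counts were 37 lower and 3 higher with a median of -0.82, and under the 2 scalings to equal sums 22 and 25 were lower and 0 higher. Set against Lyn-/- mice, 31 of 64 were lower and 0 higher with a median of -1.29, where 0.818% of all genes were lower and 0.136% higher. In Lyn-/- mice 33 of 64 lay above WT and 6 below, with a median of 0.63, beside 20.4% above and 16.5% below among all genes.

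Irf7, the transcription factor that amplifies IFN production (chromosome 7, 141263183 to 141266499), had the largest log2 fall of the type I ISGs. It stood at 5.26, 6.74, 9.002 and 8.61 RPKM in Lyn-/-Ifnar1-/- mice, 288, 893, 549 and 945 RPKM in Lyn-/- mice and 182, 178, 210.5 and 147 RPKM in WT mice. The 3 groups did not overlap, and all 4 Lyn-/-Ifnar1-/- mice lay far below the WT range (log2 fold change against WT -4.52 ± 0.21 (SE), adjusted p = 7.34e-06). The difference to Lyn-/- mice was -6.29 ± 0.37 (SE), adjusted p = 2.19e-05. The log2 scale understates the change of genes with low RPKM, so the rank of Irf7 holds for that scale only. By reads, Oas2 was at least 28.7-fold lower than in WT mice and Usp18 73.1-fold lower (95% exact interval 12.8 to 2916).

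Several members of the 2′-5′ oligoadenylate synthetase family, whose product activates the antiviral nuclease RNase L, were not detected. Oas1a stood at 0 RPKM in all 4 Lyn-/-Ifnar1-/- mice, while Lyn-/- mice had 10.2, 9.79, 10.97 and 10.2 RPKM and WT mice 2.94, 3.09, 1.58 and 2.41 RPKM. Taking 3 reads over the whole group as the limit that a count of 0 allows, it was at least 16.3-fold lower than in WT and at least 65.8-fold lower than in Lyn-/- mice. Oas2 was also at 0 in all 4, against 2.35, 2.49, 1.38 and 2.42 RPKM in WT mice, at least 28.7-fold lower. Oasl1 was at 0 in all 4, against 2.72, 3.57, 2.19 and 1.51 RPKM in WT mice, at least 17.9-fold lower. Each of these 3 genes was thus separated from WT in every mouse. Mx2, a dynamin-like antiviral GTPase, was at 0 too, against 0.824, 0.2403, 0.686 and 0.331 RPKM in WT mice, at least 4.37-fold lower. Oas1g was at 0 in all 4 and also in WT mice 1, 3 and 4, and was at least 10.1-fold lower than in Lyn-/- mice, where it stood at 1.52, 1.32, 1.04 and 2.19 RPKM. Mx2 and Oas1g missed the filter on low values against WT. With the 3 tested genes at 0 placed at these bounds, the median of the list stayed at -0.95. These bounds cover counting error only, and RPKM of near-identical copies such as Oas1a and Oas1g, Ifi27l1 and Ifi27l2a, or Tgtp1 and Tgtp2 depend on how shared reads were counted.

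Other antiviral effectors were detected at a fraction of the WT level. Usp18, the protease that removes Isg15 from proteins and dampens Ifnar2 signalling, stood at 0, 0, 0 and 0.266 RPKM in Lyn-/-Ifnar1-/- mice, against 4.26, 4.11, 4.88 and 3.17 RPKM in WT mice, from 1 read in all Lyn-/-Ifnar1-/- mice and 106 reads in WT mice. The ratio of these reads was 73.1-fold (95% exact interval 12.8 to 2916). Ifit1, which binds viral RNA lacking host cap methylation, stood at 1.19, 0.745, 2.47 and 1.96 RPKM in Lyn-/-Ifnar1-/- mice, against 15.5, 14.6, 16.8 and 12.2 RPKM in WT mice (-2.94 ± 0.26 (SE), adjusted p = 3.19e-04). Rtp4, a chaperone of membrane receptors, was at 0.444, 0.312, 0 and 0 RPKM in Lyn-/-Ifnar1-/- mice, against 10.2, 6.296, 5.28 and 3.74 RPKM in WT mice (-3.29 ± 0.32 (SE), adjusted p = 4.31e-04). No Lyn-/-Ifnar1-/- mouse reached the WT range for any of these 3 genes. Ifi27l2a stood at 1.51, 3.18, 2.01 and 6.103 RPKM in Lyn-/-Ifnar1-/- mice, against 69.004, 43.4, 23.7 and 45.1 RPKM in WT mice (-3.69 ± 0.40 (SE), adjusted p = 7.37e-04), and Oasl2 at 2.898, 1.96, 6.52 and 4.05 RPKM in Lyn-/-Ifnar1-/- mice, against 20.9, 15.05, 17.4 and 9.56 RPKM in WT mice (-1.95 ± 0.33 (SE), adjusted p = 0.00659). Oas3 stood at 0.519, 0.469, 2.76 and 0.499 RPKM in Lyn-/-Ifnar1-/- mice, against 9.88, 8.03, 6.69 and 4.99 RPKM in WT mice, with mouse 3 above the other 3 (-2.52 ± 0.39 (SE), adjusted p = 0.00417).

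Isg15, the ubiquitin-like ISG product, differed among the Lyn-/-Ifnar1-/- mice themselves. It stood at 14.8, 13.97, 204 and 63.5 RPKM in Lyn-/-Ifnar1-/- mice, 564, 1782, 1090.0 and 2292 RPKM in Lyn-/- mice and 347, 280.1, 298 and 217 RPKM in WT mice. Mice 3 and 4 were several times higher than mice 1 and 2, although still below all WT mice (-2.77 ± 0.74 (SE), adjusted p = 0.0409). Without mice 3 and 4 the log2 fold change was -4.25 (adjusted p = 3.94e-07), whereas the call was lost without Lyn-/-Ifnar1-/- mouse 1, 2 or 4 or without any 1 WT mouse (adjusted p = 0.0627 to 0.116). Rsad2, which encodes the antiviral enzyme viperin, had the same order of mice, at 147, 126, 919 and 385 RPKM in Lyn-/-Ifnar1-/- mice, 913, 2255, 1551 and 3186 RPKM in Lyn-/- mice and 562, 571, 664 and 425 RPKM in WT mice. Its groups overlapped through mouse 3 (adjusted p = 0.272), and without mice 3 and 4 the log2 fold change was -2.01 (adjusted p = 4.84e-05). Mice 3 and 4 also had the highest erythroid sums, and the part of red blood cell RNA in the values of these 2 genes was not tested.

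A second set of ISGs fell by a smaller step and with little spread. Sp100, a component of PML nuclear bodies, stood at 28.02, 28.1, 25.8 and 22.5 RPKM in Lyn-/-Ifnar1-/- mice, against 68.2, 64.3, 65.3 and 54.2 RPKM in WT mice (-1.25 ± 0.16 (SE), adjusted p = 0.00157). Trim30a stood at 4.82, 5.08, 4.69 and 4.87 RPKM in Lyn-/-Ifnar1-/- mice, against 10.7, 9.19, 9.26 and 8.31 RPKM in WT mice (-0.87 ± 0.14 (SE), adjusted p = 0.00442), and Slfn8 at 1.57, 1.47, 1.85 and 1.29 RPKM in Lyn-/-Ifnar1-/- mice, against 8.19, 5.96, 5.22 and 5.34 RPKM in WT mice (-1.69 ± 0.18 (SE), adjusted p = 6.18e-04). In each of the 3, the highest Lyn-/-Ifnar1-/- mouse lay below the lowest WT mouse. Xaf1 (-1.81, adjusted p = 9.79e-04) and Ms4a4c (-1.31, adjusted p = 0.00522) were lower too. Of the receptor's own signal carriers, Stat2 stood at 3.18, 2.68, 2.12 and 2.14 RPKM in Lyn-/-Ifnar1-/- mice, against 6.31, 5.303, 5.22 and 5.42 RPKM in WT mice (-1.01 ± 0.16 (SE), adjusted p = 0.00483) and Irf9 at 7.802, 4.204, 5.88 and 5.26 RPKM in Lyn-/-Ifnar1-/- mice, against 12.6, 10.8, 10.6 and 12.7 RPKM in WT mice (-0.98 ± 0.19 (SE), adjusted p = 0.0112).

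In Lyn-/- mice, which keep the receptor, 6 of 64 listed ISGs were below WT, a smaller share than the 16.5% of all genes. Samd9l stood at 6.298, 6.96, 5.41 and 6.28 RPKM in Lyn-/-Ifnar1-/- mice, 8.95, 11.9, 8.16 and 8.37 RPKM in Lyn-/- mice and 22.3, 16.2, 18.97 and 19.6 RPKM in WT mice (-1.55 ± 0.15 (SE), adjusted p = 4.74e-04 for Lyn-/-Ifnar1-/- against WT, -1.01 ± 0.16 (SE), adjusted p = 6.48e-04 for Lyn-/- against WT). Helz2 (-1.59 and -1.13 in the same order), Ifi203 (-1.47 and -1.03), Mndal (-1.34 and -1.02) and Pml (-1.35 and -1.16) were lower in both comparisons, which share the WT mice. None of these 5 genes was called against Lyn-/- mice (adjusted p = 0.224, 0.268, 0.311, 0.527 and 0.66).

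A further set was called lower than in Lyn-/- mice and was not called against WT. Ifitm3, which blocks viral entry at endosomes, stood at 97.6, 74.3, 74.6 and 78.5 RPKM in Lyn-/-Ifnar1-/- mice, 271, 263, 198 and 229 RPKM in Lyn-/- mice and 63.3, 59.8, 70.3 and 52.04 RPKM in WT mice. For Ifitm3 the log2 fold change was -1.56 ± 0.22 (SE), adjusted p = 0.00798 against Lyn-/-, and 0.401 ± 0.18 (SE), adjusted p = 0.16 against WT. Zbp1, a sensor of Z-form nucleic acids, stood at 11.8, 9.32, 10.3 and 9.802 RPKM in Lyn-/-Ifnar1-/- mice, 20.6, 23.4, 22.03 and 21.02 RPKM in Lyn-/- mice and 10.5, 10.2, 8.304 and 11.4 RPKM in WT mice. For Zbp1 the log2 fold change was -1.05 ± 0.16 (SE), adjusted p = 0.0146 against Lyn-/-, and 0.03 ± 0.15 (SE), adjusted p = 0.902 against WT. Ifi204, a DNA sensor, stood at 3.66, 4.28, 4.05 and 3.28 RPKM in Lyn-/-Ifnar1-/- mice, 20.9, 27.04, 12.9 and 15.8 RPKM in Lyn-/- mice and 5.704, 3.55, 3.33 and 3.85 RPKM in WT mice. For Ifi204 the log2 fold change was -2.14 ± 0.23 (SE), adjusted p = 0.00148 against Lyn-/-, and -0.07 ± 0.18 (SE), adjusted p = 0.804 against WT. For Zbp1 and Ifi204 the range of Lyn-/-Ifnar1-/- mice overlapped that of WT mice and not that of Lyn-/- mice, and for Ifitm3 all 4 lay slightly above WT. The calls of Ifitm3 and Parp12 were lost without Lyn-/- mouse 2 (adjusted p = 0.0593 and 0.0606), and that of Zbp1 without Lyn-/- mouse 2 or 3 or Lyn-/-Ifnar1-/- mouse 2 (0.0507 to 0.0867). Parp12 (-1.32, adjusted p = 0.0119), Slfn4 (-2.57, 0.00106), Ly6c2 (-1.89, 0.00397) and Cmpk2 (-2.59, 0.00195) were also lower than in Lyn-/- mice, and none was called against WT. The log2 fold changes against WT were 0.24 (adjusted p = 0.443) for Parp12, -0.704 (0.138) for Slfn4, -0.61 (0.113) for Ly6c2 and -0.83 (0.0559) for Cmpk2. A p that misses the threshold does not show that the levels were equal.

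Other listed ISGs were neither below WT nor below Lyn-/- mice, or were above WT. Ifit2 stood at 8.32, 5.47, 8.004 and 16.3 RPKM in Lyn-/-Ifnar1-/- mice, 3.49, 8.47, 8.91 and 10.1 RPKM in Lyn-/- mice and 6.85, 7.303, 10.8 and 8.34 RPKM in WT mice, with overlapping groups throughout. Ifi47, an IRG GTPase also induced by IFN-γ, stood at 14.8, 12.7, 18.9 and 18.7 RPKM in Lyn-/-Ifnar1-/- mice, 11.6, 21.6, 18.5 and 14.3 RPKM in Lyn-/- mice and 17.2, 15.05, 14.7 and 21.1 RPKM in WT mice, again with overlapping groups. Ifitm2 was higher than in WT mice, at 123, 133, 77.1 and 122 RPKM in Lyn-/-Ifnar1-/- mice, 389, 223, 173 and 145 RPKM in Lyn-/- mice and 46.4, 53.9, 55.7 and 35.9 RPKM in WT mice. For Ifitm2 the log2 fold change against WT was 1.23 ± 0.23 (SE), adjusted p = 0.0102. Ifitm6 was also higher (0.95 ± 0.25 (SE), adjusted p = 0.0402), although this call was lost without Lyn-/-Ifnar1-/- mouse 1, 2 or 4 or without any 1 WT mouse (adjusted p = 0.0608 to 0.124). Under the scalings to equal sums neither gene was called.

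**Figure D1:**
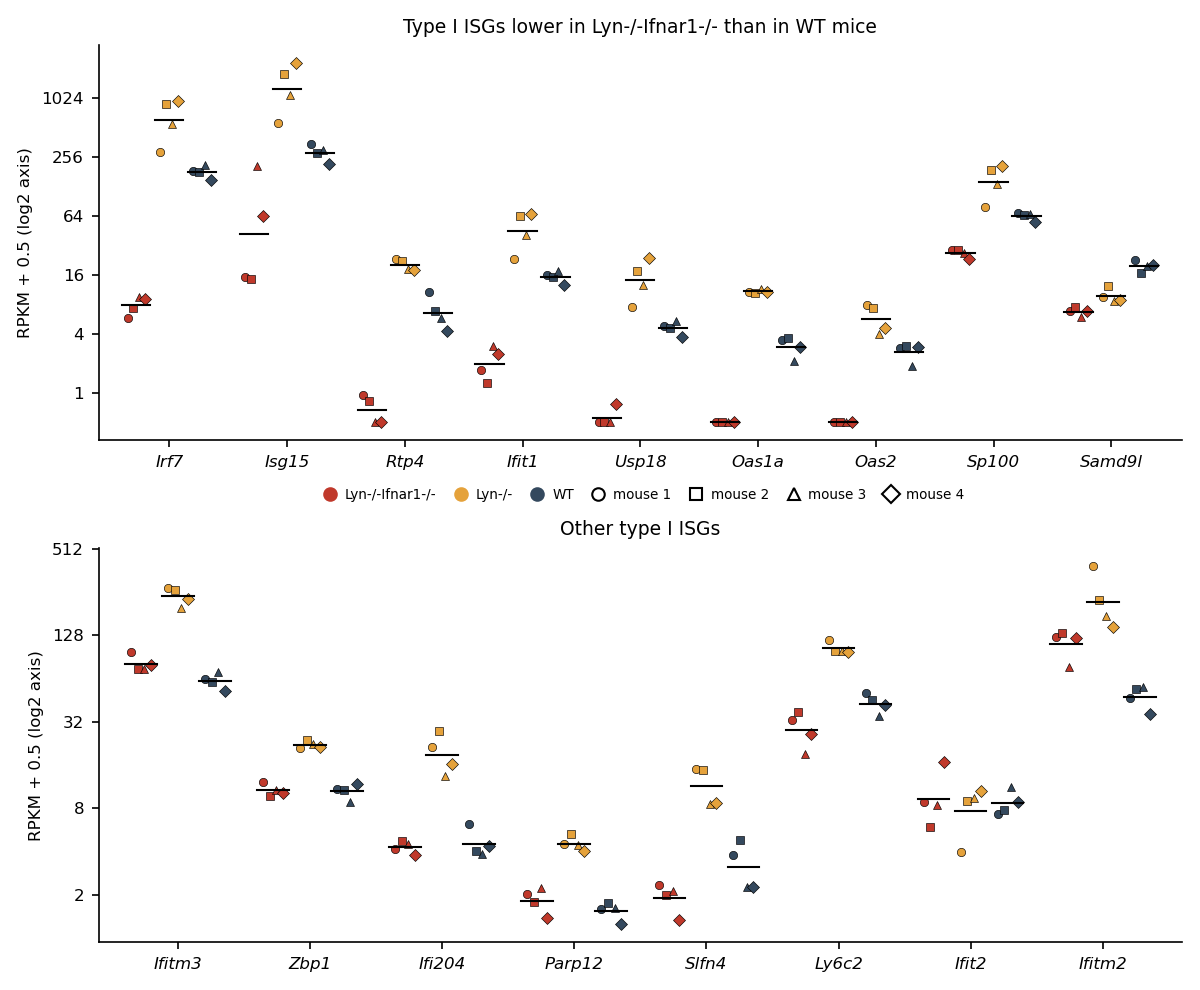
RPKM + 0.5 on a log2 axis of type I ISGs in each mouse, with Lyn-/-Ifnar1-/- mice at the left, Lyn-/- mice in the middle and WT mice at the right of each gene; point shapes give the mouse number and bars the mean of the log2 values. In the upper panel all Lyn-/-Ifnar1-/- mice lie below all WT mice, with Oas1a and Oas2 at 0 in all 4 and Isg15 spread from 14.0 to 204 RPKM; in the lower panel the groups of Zbp1 and Ifi204 overlap with WT and lie below Lyn-/- mice.

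Related interferon lists moved less. Of all genes tested, 5.26% were higher and 5.54% lower than in WT mice. The 1 higher and 1 lower gene among 16 receptor, JAK and STAT genes are near these shares. Of 10 interferon regulatory factors tested, 3 were lower (Irf7, Irf9 and Irf4) and 0 higher than in WT mice, with a median of -0.34 (4 lower without mice 3 and 4, 1 at equal sums). Irf4, which drives plasma cell formation, stood at 1.49, 2.41, 0.596 and 1.61 RPKM in Lyn-/-Ifnar1-/- mice, against 4.69, 3.61, 5.11 and 3.31 RPKM in WT mice (-1.27 ± 0.28 (SE), adjusted p = 0.0205), and its call was lost without WT mouse 1 or 3 (adjusted p = 0.0645 and 0.0721). Irf8 stood at 18.4, 13.7, 6.25 and 13.3 RPKM in Lyn-/-Ifnar1-/- mice, against 22.4, 21.5, 21.3 and 23.7 RPKM in WT mice, where all 4 lay below WT without passing the test (adjusted p = 0.0786). Of 16 receptor, JAK and STAT genes, Stat2 was lower and the IFN-γ receptor chain Ifngr1 higher, at 54.3, 67.2, 53.1 and 45.8 RPKM in Lyn-/-Ifnar1-/- mice, against 33.8, 38.7, 35.95 and 33.8 RPKM in WT mice (0.61 ± 0.17 (SE), adjusted p = 0.0455, lost without Lyn-/-Ifnar1-/- mouse 1 or 2 or any 1 WT mouse, adjusted p = 0.0608 to 0.139). Ifnar2, the partner chain of Ifnar1, stood at 13.98, 11.4, 22.3 and 14.1 RPKM in Lyn-/-Ifnar1-/- mice, 25.8, 25.9, 26.4 and 26.6 RPKM in Lyn-/- mice and 10.9, 13.4, 14.3 and 10.4 RPKM in WT mice, lower than in Lyn-/- mice in each mouse but without a call (adjusted p = 0.147). Of 13 GBP and IRG GTPases, which attack vacuoles of pathogens and respond to both types of IFN, 4 were lower and 0 higher. They were Gbp9 (-0.67), Irgm1 (-0.94), Irgm2 (-0.67) and Tgtp2 (-1.16), and none was called under the scalings to equal sums, while 4 were lower without mice 3 and 4. The calls of Gbp9 and Irgm1 were lost without WT mouse 1, 2 or 4 (adjusted p = 0.0506 to 0.0636), that of Tgtp2 without any 1 WT mouse (0.0782 to 0.11), and that of Irgm2 without Lyn-/-Ifnar1-/- mouse 2, 3 or 4 or any 1 WT mouse (0.0507 to 0.128). Of 19 genes of MHC class I presentation 0 were called in either direction, with a median of -0.057, and 1 was higher without mice 3 and 4.

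B cell genes remained far below WT without the receptor. Of 26 B cell markers tested, 24 were lower and 0 higher than in WT mice with a median log2 fold change of -2.05, and without mice 3 and 4 the count was again 24 with a median of -1.85. Among all genes 5.54% were lower, and 545 of 8238 without mice 3 and 4. Of the 26, 1 (Cr2) passed the filter only through its WT levels. Under the scalings to equal sums 21 were lower. In Lyn-/- mice 25 of 26 were lower than in WT with a median of -2.87, beside 16.5% of all genes. Between the mutants, 0 of 24 were called in either direction with a median of 0.78, and without mice 3 and 4 there were 8 higher and 0 lower. In that fit 49 of all 8066 genes were higher and 266 lower. In bulk blood fewer B cells and less RNA per B cell cannot be told apart.

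Ms4a1, which encodes the B cell surface protein CD20, stood at 8.84, 10.4, 7.23 and 10.5 RPKM in Lyn-/-Ifnar1-/- mice, 4.42, 6.85, 4.03 and 4.89 RPKM in Lyn-/- mice and 82.2, 53.8, 54.95 and 63.5 RPKM in WT mice. For Ms4a1 the log2 fold change against WT was -2.71 ± 0.19 (SE), adjusted p = 8.73e-05. The 3 groups did not overlap, with Lyn-/-Ifnar1-/- mice just above Lyn-/- mice and far below WT mice, while the test against Lyn-/- mice missed the threshold (adjusted p = 0.111). Cd79a, a signalling chain of the B cell receptor, stood at 41.1, 47.4, 19.6 and 45.8 RPKM in Lyn-/-Ifnar1-/- mice, 25.95, 24.5, 18.98 and 15.5 RPKM in Lyn-/- mice and 219.7, 168, 166 and 193 RPKM in WT mice. For Cd79a the log2 fold change against WT was -2.33 ± 0.28 (SE), adjusted p = 0.00119. Mouse 3 was the lowest of the 4 Lyn-/-Ifnar1-/- mice for Cd79a, and all 4 lay below the WT range. Cr2, the complement receptor of mature B cells, stood at 0.619, 0.317, 0.1498 and 0.455 RPKM in Lyn-/-Ifnar1-/- mice, against 7.94, 5.82, 5.303 and 7.37 RPKM in WT mice (-3.02 ± 0.21 (SE), adjusted p = 8.01e-05), and Tnfrsf13c, the receptor for the survival factor BAFF, at 1.65, 4.51, 1.95 and 3.21 RPKM in Lyn-/-Ifnar1-/- mice, against 25.1, 16.05, 23.02 and 21.2 RPKM in WT mice (-2.78 ± 0.27 (SE), adjusted p = 4.64e-04). Fcer2a (-2.72), Blnk (-2.77), Vpreb3 (-2.89), Pax5 (-2.02), Cd22 (-2.05) and Cxcr5 (-2.05) fell as well, with adjusted p between 3.91e-04 (Pax5) and 0.0074 (Vpreb3).

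Siglecg, an inhibitory receptor of B cells that Lyn can phosphorylate, was called against both other genotypes. It stood at 4.92, 6.43, 4.12 and 3.22 RPKM in Lyn-/-Ifnar1-/- mice, 1.89, 1.95, 1.11 and 1.76 RPKM in Lyn-/- mice and 16.6, 12.7, 13.5 and 15.3 RPKM in WT mice. Each Lyn-/-Ifnar1-/- mouse lay between the Lyn-/- range and the WT range (-1.57 ± 0.20 (SE), adjusted p = 0.0017 against WT, 1.23 ± 0.23 (SE), adjusted p = 0.0378 against Lyn-/-). The call against Lyn-/- mice was lost without any 1 of them or without Lyn-/-Ifnar1-/- mouse 1 or 2 (adjusted p = 0.0791 to 0.116). Ly6d, a surface protein of early B cells, stood at 24.3, 34.5, 6.73 and 31.4 RPKM in Lyn-/-Ifnar1-/- mice, against 217, 131, 165 and 212 RPKM in WT mice (-3.07 ± 0.45 (SE), adjusted p = 0.00332). Scd1, a fatty acid desaturase, stood at 4.697, 5.33, 2.499 and 5.65 RPKM in Lyn-/-Ifnar1-/- mice, against 35.8, 26.6, 29.8 and 32.1 RPKM in WT mice (-2.69 ± 0.23 (SE), adjusted p = 3.19e-04). Both genes were separated from WT in every mouse.

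Genes of MHC class II presentation, which B cells, dendritic cells and monocytes use to show peptides to CD4+ T cells, followed the same direction. Of 15 tested, 11 were lower and 0 higher than in WT mice with a median of -1.53, and this count was 11 with any 1 library or mice 3 and 4 left out, and 9 and 11 under the scalings to equal sums. Among all genes 5.54% were lower in Lyn-/-Ifnar1-/- than in WT mice. In Lyn-/- mice 11 of 15 lay below WT and 2 above, beside 16.5% below and 20.4% above among all genes. H2-Aa stood at 109.5, 111, 77.4 and 115 RPKM in Lyn-/-Ifnar1-/- mice, 68.6, 59.7, 58.4 and 49.9 RPKM in Lyn-/- mice and 472, 323, 318 and 370.1 RPKM in WT mice. For H2-Aa the log2 fold change against WT was -1.84 ± 0.22 (SE), adjusted p = 0.00119. Cd74, the invariant chain, stood at 459.7, 364, 205 and 352 RPKM in Lyn-/-Ifnar1-/- mice, 227, 192, 206 and 185 RPKM in Lyn-/- mice and 1426, 1100.3, 1142 and 1248 RPKM in WT mice. For Cd74 the log2 fold change against WT was -1.88 ± 0.29 (SE), adjusted p = 0.00428. Ciita, the transactivator of these genes, stood at 3.25, 2.63, 1.796 and 1.99 RPKM in Lyn-/-Ifnar1-/- mice, 1.55, 1.62, 1.15 and 0.998 RPKM in Lyn-/- mice and 10.1, 6.6004, 8.18 and 6.68 RPKM in WT mice. For Ciita the log2 fold change against WT was -1.53 ± 0.21 (SE), adjusted p = 0.00206. For H2-Aa the 4 Lyn-/-Ifnar1-/- mice lay above the 4 Lyn-/- mice without passing the test (adjusted p = 0.147). Between the mutants, 0 of 14 were called with a median of 0.69, and without mice 3 and 4 there were 6 higher, beside 49 of all 8066 genes.

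Of 4 plasma cell genes tested, 2 were lower, Irf4 and Mzb1, a chaperone of antibody secretion that stood at 5.79, 7.59, 6.16 and 7.28 RPKM in Lyn-/-Ifnar1-/- mice, against 19.8, 15.1, 17.6 and 16.2 RPKM in WT mice (-1.298 ± 0.16 (SE), adjusted p = 0.00115). Of 7 dendritic cell genes tested, 3 were lower (Ly6d, Ccr9 and Spib), and Ly6d and Spib are known from B cells as well. There were 5 lower without mice 3 and 4, and 1 of the 7 genes passed the filter only through its WT levels. Of all genes tested, 5.54% were lower in the fit of all 8 libraries. The call of Ccr9 was lost without Lyn-/-Ifnar1-/- or WT mouse 2, 3 or 4 (adjusted p = 0.0603 to 0.115). Of 6 eosinophil and basophil genes, 1 (Ms4a2) passed the filter only through its WT levels, so its call is a description, and 2 were lower. They were Ms4a2, a chain of the IgE receptor, at 0.497, 0.698, 0.3303 and 0.502 RPKM in Lyn-/-Ifnar1-/- mice, against 1.103, 1.76, 1.89 and 1.52 RPKM in WT mice (-1.03 ± 0.20 (SE), adjusted p = 0.0114), and Il5ra, at 0.984, 1.04, 0.523 and 0.265 RPKM in Lyn-/-Ifnar1-/- mice, against 1.62, 1.89, 1.497 and 1.96 RPKM in WT mice, whose call was lost without mice 3 and 4 (adjusted p = 0.0752), without either of them or without any 1 WT mouse (0.0536 to 0.109).

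Monocyte genes stayed above WT. Of 23 markers of nonclassical (Ly6C-low, patrolling) monocytes, 17 were higher and 0 lower than in WT mice with a median of 1.10, beside 5.26% higher among all genes. Without mice 3 and 4 there were 19 higher with a median of 1.37. Under the scalings to equal sums the medians were 0.64 and 0.54 and 1 gene was called. In Lyn-/- mice 21 of 23 were higher than in WT with a median of 2.13, beside 20.4% of all genes. Against Lyn-/- mice 2 of 23 were lower (Cebpb and Apoc2) with a median of -0.83, beside 0.818% of all genes.

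Dpep2, a membrane dipeptidase, had the largest rise of these genes, at 11.3, 15.4, 12.1 and 14.4 RPKM in Lyn-/-Ifnar1-/- mice, 25.7, 17.9, 16.6 and 16.1 RPKM in Lyn-/- mice and 1.13, 1.15, 1.32 and 0.758 RPKM in WT mice. For Dpep2 the log2 fold change against WT was 3.12 ± 0.17 (SE), adjusted p = 2.37e-05. Csf1r, the receptor for the monocyte growth factor M-CSF, stood at 44.5, 46.9, 21.8 and 25.4 RPKM in Lyn-/-Ifnar1-/- mice, 83.05, 61.5, 67.4 and 63.04 RPKM in Lyn-/- mice and 9.85, 9.25, 11.8 and 10.98 RPKM in WT mice. For Csf1r the log2 fold change against WT was 1.61 ± 0.26 (SE), adjusted p = 0.00498. Cx3cr1, the fractalkine receptor, stood at 9.31, 9.56, 7.18 and 5.898 RPKM in Lyn-/-Ifnar1-/- mice, 14.98, 14.5, 15.3 and 13.97 RPKM in Lyn-/- mice and 2.48, 2.72, 2.83 and 2.14 RPKM in WT mice. For Cx3cr1 the log2 fold change against WT was 1.46 ± 0.18 (SE), adjusted p = 0.00139. For Csf1r and Cx3cr1 the 4 Lyn-/-Ifnar1-/- mice lay between the WT range and the Lyn-/- range, with mice 3 and 4 below mice 1 and 2. Nr4a1, a nuclear receptor needed for nonclassical monocytes, stood at 36.7, 38.8, 20.7 and 23.8 RPKM in Lyn-/-Ifnar1-/- mice, 48.5, 48.7, 47.8 and 49.8 RPKM in Lyn-/- mice and 7.53, 9.18, 7.92 and 8.22 RPKM in WT mice (1.76 ± 0.22 (SE), adjusted p = 0.00139), and the activating IgG receptor Fcgr4 at 41.7, 36.4, 21.6 and 34.3 RPKM in Lyn-/-Ifnar1-/- mice, 56.9, 33.4, 36.4 and 44.7 RPKM in Lyn-/- mice and 9.41, 9.32, 9.04 and 8.99 RPKM in WT mice. For Fcgr4 the log2 fold change against WT was 1.77 ± 0.20 (SE), adjusted p = 9.28e-04. Of these 5 genes none was called against Lyn-/- mice (adjusted p from 0.0749 for Cx3cr1 to 0.568 for Fcgr4).

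Apoc2, an apolipoprotein that activates lipoprotein lipase, was called against both other genotypes, at 27.7, 32.7, 26.5 and 31.3 RPKM in Lyn-/-Ifnar1-/- mice, 82.96, 69.7, 54.7 and 57.5 RPKM in Lyn-/- mice and 11.6, 7.39, 5.27 and 4.24 RPKM in WT mice. For Apoc2 the log2 fold change was 2.07 ± 0.27 (SE), adjusted p = 0.0017 against WT, and -1.14 ± 0.20 (SE), adjusted p = 0.0303 against Lyn-/-. Cebpb, a transcription factor of nonclassical monocytes, stood at 41.1, 59.4, 29.1 and 35.7 RPKM in Lyn-/-Ifnar1-/- mice, 108, 98.02, 92.5 and 95.3 RPKM in Lyn-/- mice and 12.1, 20.7, 19.5 and 12.99 RPKM in WT mice. For Cebpb the log2 fold change was 1.303 ± 0.26 (SE), adjusted p = 0.013 against WT, and -1.29 ± 0.24 (SE), adjusted p = 0.0378 against Lyn-/-. Both genes placed every Lyn-/-Ifnar1-/- mouse between the other 2 groups, and the call of Cebpb against WT was lost without WT mouse 1 or 4 (adjusted p = 0.0517 and 0.0524). Against Lyn-/- mice both calls were lost without any 1 Lyn-/- mouse, without Lyn-/-Ifnar1-/- mouse 1 or 4 and, for Apoc2, without mouse 2 (0.059 to 0.14).

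Of 17 classical monocyte markers tested, 10 were higher (beside 5.26% of all genes) and 0 lower than in WT mice with a median of 0.92. The count was 11 higher and 1 lower without mice 3 and 4 and 6 higher without any 1 WT mouse, and under the scalings to equal sums 0 with medians of 0.53 and 0.44. Compared with Lyn-/- mice, where 0.818% of all genes were lower, 5 of 19 were lower (Ly6c2, Cd14, Ms4a6c, Ms4a6d and Fcgr1). Of these, Cd14, Ms4a6c and Fcgr1 lost the call without any 1 Lyn-/- mouse and without Lyn-/-Ifnar1-/- mouse 1, with mouse 4 for the first pair and mice 2 and 3 for Fcgr1 (adjusted p = 0.059 to 0.159). Ms4a6d stood at 3.82, 3.58, 4.75 and 4.47 RPKM in Lyn-/-Ifnar1-/- mice, 12.7, 17.01, 9.31 and 11.5 RPKM in Lyn-/- mice and 1.94, 1.91, 2.18 and 1.76 RPKM in WT mice. For Ms4a6d the log2 fold change was 0.92 ± 0.15 (SE), adjusted p = 0.00504 against WT, and -1.47 ± 0.21 (SE), adjusted p = 0.00775 against Lyn-/-. Every mouse lay between the other groups. Cd14, the coreceptor for lipopolysaccharide, stood at 3.74, 5.58, 1.24 and 5.35 RPKM in Lyn-/-Ifnar1-/- mice, 21.9, 13.5, 16.1 and 11.97 RPKM in Lyn-/- mice and 1.78, 1.36, 2.22 and 1.25 RPKM in WT mice. It was lower than in Lyn-/- mice (-1.99 ± 0.38 (SE), adjusted p = 0.039), while mouse 3 lay as low as the lowest WT mouse and the others above WT (adjusted p = 0.128 against WT). Ccr2, the receptor that lets classical monocytes leave bone marrow, stood at 15.5, 17.7, 13.99 and 14.8 RPKM in Lyn-/-Ifnar1-/- mice, 29.2, 18.6, 19.999 and 15.8 RPKM in Lyn-/- mice and 10.4, 5.84, 6.21 and 6.71 RPKM in WT mice. For Ccr2 the log2 fold change against WT was 1.07 ± 0.19 (SE), adjusted p = 0.00927.

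**Figure D2:**
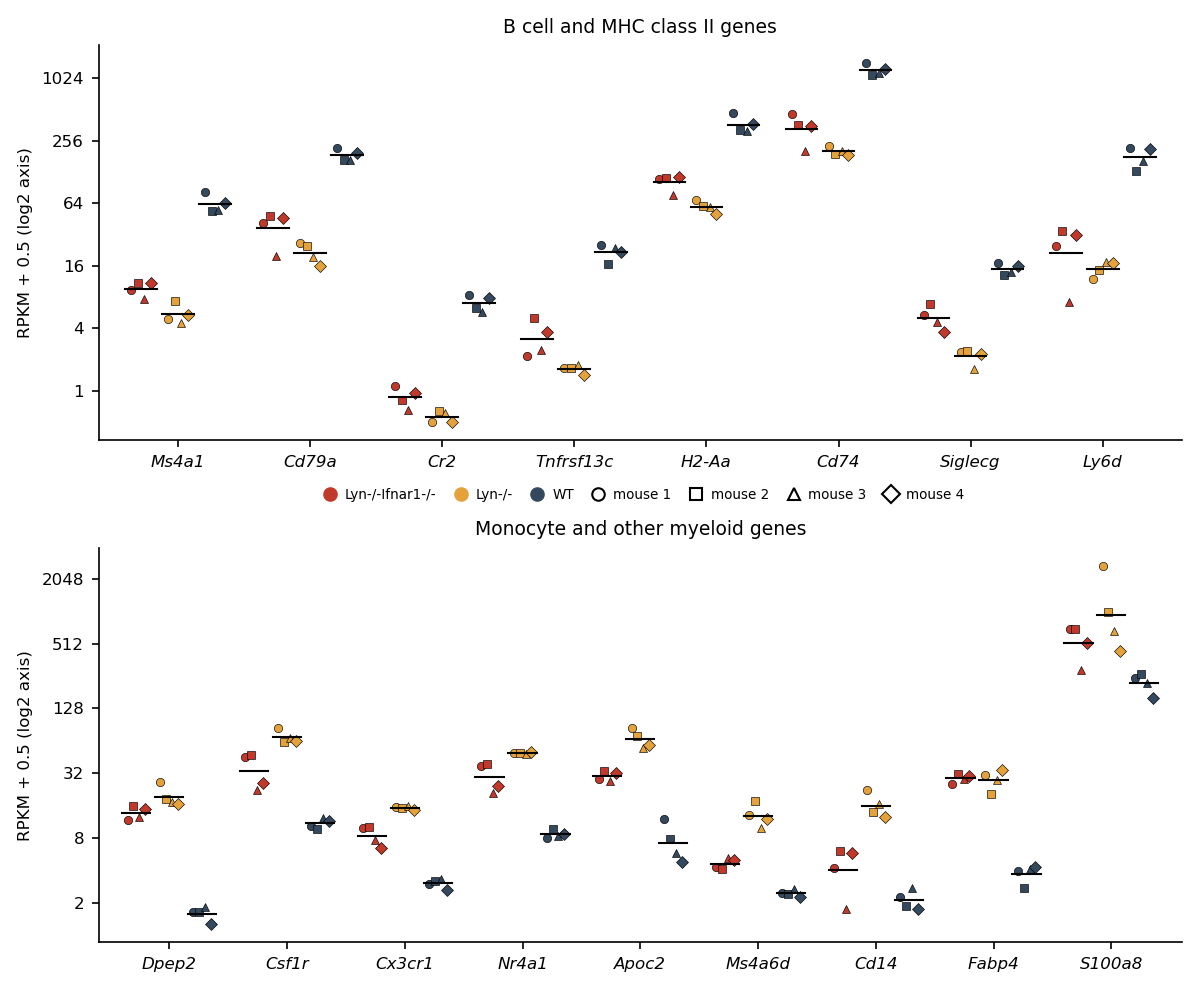
RPKM + 0.5 on a log2 axis of B cell and MHC class II genes (upper panel) and myeloid genes (lower panel) in each mouse, with Lyn-/-Ifnar1-/- mice at the left, Lyn-/- mice in the middle and WT mice at the right of each gene; point shapes give the mouse number and bars the mean of the log2 values. All Lyn-/-Ifnar1-/- mice lie below all WT mice in the upper panel and above all WT mice in the lower panel, except for Cd14, where mouse 3 lies as low as the lowest WT mouse; the rises are under TMM scaling, and equal RPKM sums leave fewer of them called.

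Some genes of phagocytes beyond the marker lists rose as well. Of 30 lysosome and phagocytosis genes 8 were higher (beside 5.26% of all genes) and 0 lower than in WT mice. The median of the list was 0.54 under TMM, 0.089 at equal sums and -0.024 at equal sums outside hemoglobin. The count of 8 became 10 without mice 3 and 4. It was 3, 1, 3 and 1 without WT mouse 1, 2, 3 or 4, and 4 without Lyn-/-Ifnar1-/- mouse 4. Under both scalings to equal sums it was 0. Cd68, a lysosomal glycoprotein of macrophages, stood at 54.4, 64.1, 32.3 and 44.4 RPKM in Lyn-/-Ifnar1-/- mice, 99.2, 71.6, 68.8 and 71.1 RPKM in Lyn-/- mice and 12.99, 14.2, 16.2 and 10.9 RPKM in WT mice. For Cd68 the log2 fold change against WT was 1.78 ± 0.23 (SE), adjusted p = 0.00161. The lysozyme Lyz2 stood at 1493, 2094, 1847 and 2151 RPKM in Lyn-/-Ifnar1-/- mice, 2901, 2189, 2174 and 2083 RPKM in Lyn-/- mice and 821, 829, 826 and 739 RPKM in WT mice (1.22 ± 0.26 (SE), adjusted p = 0.0162, lost without any 1 WT mouse, 0.0537 to 0.0784). Of 7 Fc receptor genes, Fcgr4 and Fcer1g, the signalling chain of activating Fc receptors (1.53, adjusted p = 0.00262), were higher, and the B cell gene Fcer2a was lower. This made 3 higher and 1 lower without mice 3 and 4, and 0 and 1 at equal sums. Fcgr1, the high-affinity IgG receptor that IFN induces, was lower than in Lyn-/- mice at 1.49, 0.285, 0.718 and 2.18 RPKM in Lyn-/-Ifnar1-/- mice, against 3.94, 5.27, 3.87 and 5.57 RPKM in Lyn-/- mice (-1.76 ± 0.35 (SE), adjusted p = 0.0461).

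Of 12 complement genes, 4 were above WT and 2 below, beside 5.26% above and 5.54% below among all genes. Of the 12, 1 (Cr2) passed the filter only through its WT levels and 1 only through its Lyn-/-Ifnar1-/- levels. The counts were 6 and 3 without mice 3 and 4, 1 and 1 without WT mouse 1 or 4, and 0 and 2 under both scalings to equal sums. C3, the central complement component, stood at 5.38, 7.61, 2.898 and 4.22 RPKM in Lyn-/-Ifnar1-/- mice, 13.6, 11.1, 13.2 and 13.1 RPKM in Lyn-/- mice and 1.69, 2.04, 1.75 and 2.29 RPKM in WT mice. Each mouse lay between the other groups (1.11 ± 0.25 (SE), adjusted p = 0.0212 against WT, -1.33 ± 0.25 (SE), adjusted p = 0.039 against Lyn-/-). Its call against WT was lost without any 1 WT mouse (adjusted p = 0.0507 to 0.0732), and that against Lyn-/- without any 1 Lyn-/- mouse or Lyn-/-Ifnar1-/- mouse 1 or 4 (0.0854 to 0.127). Cfb, factor B of the alternative pathway, stood at 0.127, 0.0894, 0 and 0.343 RPKM in Lyn-/-Ifnar1-/- mice, 2.51, 3.204, 4.02 and 2.86 RPKM in Lyn-/- mice and 0.0808, 0, 0.121 and 0 RPKM in WT mice. It was near 0 as in WT mice and lower than in Lyn-/- mice (-2.52 ± 0.23 (SE), adjusted p = 4.36e-04), and missed the filter on low values against WT. Cd55, which shields cells from complement, was lower at 5.95, 5.35, 12.9 and 10.6 RPKM in Lyn-/-Ifnar1-/- mice, 3.93, 4.88, 5.19 and 5.02 RPKM in Lyn-/- mice and 28.3, 18.2, 16.3 and 23.5 RPKM in WT mice (-1.32 ± 0.29 (SE), adjusted p = 0.0208 against WT), and this call was lost without WT mouse 1 or 4 (adjusted p = 0.0718 and 0.0738).

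Several of the largest rises were genes outside the lists above, and no list of lipid genes was tested. Fabp4, a fatty acid binding protein of macrophages and fat cells, stood at 25.1, 30.7, 27.6 and 29.4 RPKM in Lyn-/-Ifnar1-/- mice, 30.5, 19.9, 26.9 and 33.4 RPKM in Lyn-/- mice and 3.46, 2.27, 3.63 and 3.76 RPKM in WT mice. For Fabp4 the log2 fold change against WT was 2.94 ± 0.17 (SE), adjusted p = 3.35e-05. Pparg, the nuclear receptor that controls it, stood at 3.88, 5.82, 5.62 and 3.32 RPKM in Lyn-/-Ifnar1-/- mice, 5.83, 4.66, 5.39 and 4.85 RPKM in Lyn-/- mice and 1.01, 0.4405, 0.838 and 0.2698 RPKM in WT mice. For Pparg the log2 fold change against WT was 2.198 ± 0.26 (SE), adjusted p = 0.00105. Fabp4 and Pparg overlapped with Lyn-/- mice and were separated from WT mice. Lpl, lipoprotein lipase, stood at 2.24, 4.25, 2.07 and 1.74 RPKM in Lyn-/-Ifnar1-/- mice, 1.43, 2.28, 2.47 and 1.51 RPKM in Lyn-/- mice and 0.0548, 0.432, 0.328 and 0.331 RPKM in WT mice. For Lpl the log2 fold change against WT was 1.93 ± 0.27 (SE), adjusted p = 0.00256. Of 26 heme breakdown and antioxidant genes, 3 were higher (beside 5.26% of all genes) and 0 lower. There were 6 higher without mice 3 and 4, 8 and 5 without Lyn-/-Ifnar1-/- mouse 1 or 3, and 0 at equal sums. On this list, Hmox1, which breaks down heme, stood at 13.3, 22.8, 12.98 and 13.1 RPKM in Lyn-/-Ifnar1-/- mice, 30.8, 22.9, 29.997 and 24.4 RPKM in Lyn-/- mice and 2.82, 3.14, 4.85 and 3.23 RPKM in WT mice. For Hmox1 the log2 fold change against WT was 1.98 ± 0.23 (SE), adjusted p = 9.13e-04. Tgm2, a transglutaminase, was called against both, at 11.1, 11.8, 8.64 and 9.95 RPKM in Lyn-/-Ifnar1-/- mice, 22.7, 22.2, 26.2 and 27.7 RPKM in Lyn-/- mice and 1.19, 4.104, 2.72 and 2.04 RPKM in WT mice. For Tgm2 the log2 fold change was 1.94 ± 0.28 (SE), adjusted p = 0.00272 against WT, and -1.21 ± 0.18 (SE), adjusted p = 0.0103 against Lyn-/-, lost without Lyn-/- mouse 3, adjusted p = 0.0509. Apol11a stood at 12.97, 7.38, 91.98 and 13.3 RPKM in Lyn-/-Ifnar1-/- mice, against 2.74, 4.12, 2.64 and 1.66 RPKM in WT mice (2.596 ± 0.64 (SE), adjusted p = 0.0315), where mouse 3 lay far above the other 3, and its call was lost without Lyn-/-Ifnar1-/- mouse 4 or any 1 WT mouse (adjusted p = 0.061 to 0.0982).

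Kinases and receptors that act with Lyn were called in both directions under TMM, beside 5.26% higher and 5.54% lower among all genes. Of 37 such genes, 8 were higher and 7 lower than in WT mice with a median of 0.077 under TMM, and -0.26 and -0.37 under the scalings to equal sums, where 0 were higher and 4 lower. There were 12 higher and 7 lower without mice 3 and 4. These counts became 2, 2, 3 and 1 higher and 4 lower without WT mouse 1, 2, 3 or 4, and 5 and 4 higher without Lyn-/-Ifnar1-/- mouse 2 or 4. Fgr, a Src family kinase of myeloid cells, was higher, at 42.3, 39.8, 18.1 and 26.8 RPKM in Lyn-/-Ifnar1-/- mice, 75.7, 49.4, 50.3 and 46.7 RPKM in Lyn-/- mice and 10.8, 14.03, 12.04 and 8.73 RPKM in WT mice. For Fgr the log2 fold change against WT was 1.38 ± 0.27 (SE), adjusted p = 0.0128. This call was lost without WT mouse 4 (adjusted p = 0.0511). The B cell members Blk (-1.99), Cd22 (-2.05) and Cd72 (-1.27) were lower together with Lyn itself, the call of Cd72 being lost without Lyn-/-Ifnar1-/- mouse 4 or any 1 WT mouse (adjusted p = 0.077 to 0.123). Lair1, an inhibitory collagen receptor, stood at 6.67, 6.505, 6.09 and 6.17 RPKM in Lyn-/-Ifnar1-/- mice, 13.7, 12.9, 10.3 and 13.6 RPKM in Lyn-/- mice and 2.65, 2.99, 1.89 and 2.67 RPKM in WT mice. For Lair1 the log2 fold change was 1.18 ± 0.16 (SE), adjusted p = 0.00182 against WT, and -0.93 ± 0.16 (SE), adjusted p = 0.0283 against Lyn-/-. Each Lyn-/-Ifnar1-/- mouse lay between the other groups, and the call against Lyn-/- was lost without Lyn-/- or Lyn-/-Ifnar1-/- mouse 1, 2 or 4 (adjusted p = 0.0644 to 0.119).

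Of 31 mature neutrophil markers, 11 were higher (beside 5.26% of all genes) and 0 lower (5.54%) than in WT mice with a median of 0.87. Without mice 3 and 4 there were 23 higher with a median of 1.28. Without WT mouse 1, 2, 3 or 4 the count was 6, 6, 7 or 6, without Lyn-/-Ifnar1-/- mouse 1, 2, 3 or 4 it was 7, 8, 17 or 8, and under the scalings to equal sums 0, with medians of 0.45 and 0.35. The alarmins S100a8 and S100a9 stood at 706, 698, 292 and 519 RPKM in Lyn-/-Ifnar1-/- mice, against 246, 268, 220.5 and 158 RPKM in WT mice (1.25 ± 0.32 (SE), adjusted p = 0.0374) and at 1165, 1232, 446 and 778 RPKM in Lyn-/-Ifnar1-/- mice, against 295, 414, 379 and 268 RPKM in WT mice (1.33 ± 0.35 (SE), adjusted p = 0.0402). Mouse 3 was the lowest of the 4 for both, yet above the WT range, and both calls were lost without Lyn-/-Ifnar1-/- mouse 1, 2 or 4 or any 1 WT mouse (adjusted p = 0.0599 to 0.129). The formyl peptide receptor Fpr2 stood at 10.2, 10.04, 7.17 and 6.18 RPKM in Lyn-/-Ifnar1-/- mice, 26.4, 13.2, 14.9 and 7.42 RPKM in Lyn-/- mice and 1.71, 2.25, 2.31 and 2.27 RPKM in WT mice. For Fpr2 the log2 fold change against WT was 1.73 ± 0.19 (SE), adjusted p = 7.94e-04. Clec4e, a sensor of dead cells and mycobacteria, stood at 8.88, 12.6, 9.596 and 11.2 RPKM in Lyn-/-Ifnar1-/- mice, 36.4, 22.4, 24.2 and 17.7 RPKM in Lyn-/- mice and 3.35, 4.16, 5.28 and 3.72 RPKM in WT mice. For Clec4e the log2 fold change against WT was 1.26 ± 0.18 (SE), adjusted p = 0.00266. Trem1, an amplifier of inflammatory signals, was lower than in Lyn-/- mice at 5.08, 7.06, 3.07 and 4.204 RPKM in Lyn-/-Ifnar1-/- mice, against 17.4, 13.5, 11.4 and 10.1 RPKM in Lyn-/- mice (-1.37 ± 0.26 (SE), adjusted p = 0.0378, lost without any 1 Lyn-/- mouse or Lyn-/-Ifnar1-/- mouse 1 or 4, 0.0627 to 0.138). Among 8 neutrophil precursor genes, Lcn2 was higher (1.61 ± 0.32 (SE), adjusted p = 0.013) and Serpinb1a lower (-1.58 ± 0.28 (SE), adjusted p = 0.00815). There were 5 higher and 1 lower without mice 3 and 4, 4 and 1 without mouse 3, and 0 and 1 at equal sums. The granule gene Ngp stood at 4.82, 22.2, 0.801 and 3.65 RPKM in Lyn-/-Ifnar1-/- mice, 234, 46.6, 32.7 and 42.2 RPKM in Lyn-/- mice and 8.98, 1.51, 3.72 and 1.61 RPKM in WT mice, so that the Lyn-/-Ifnar1-/- mice overlapped WT mice.

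Inflammatory signalling lists differed in how many genes were called, beside 5.26% higher and 5.54% lower among all genes. Of 33 NF-κB subunits and targets, 1 was higher (Bcl2a1b, lost without Lyn-/-Ifnar1-/- mouse 1, 2 or 4 or any 1 WT mouse, adjusted p = 0.0585 to 0.103) and 1 lower (Cd40, -1.78 ± 0.35 (SE), adjusted p = 0.0118), with a median of 0.019 under TMM and -0.42 and -0.55 at equal sums. Of 21 IL-1 and inflammasome genes, Naip2 and Mefv were higher and 0 were lower, the call of Naip2 being lost without Lyn-/-Ifnar1-/- mouse 4 or any 1 WT mouse and that of Mefv without WT mouse 2 or 4 (adjusted p = 0.0505 to 0.0695). Mefv lay under 1 RPKM in every WT mouse and passed the filter only through its Lyn-/-Ifnar1-/- levels, so its call is a description. Il1b stood at 91.4, 91.996, 30.1 and 77.01 RPKM in Lyn-/-Ifnar1-/- mice, 249, 111, 92.6 and 87.3 RPKM in Lyn-/- mice and 35.4, 45.2, 41.8 and 20.4 RPKM in WT mice, above all WT mice in mice 1, 2 and 4 (adjusted p = 0.132, and 0.00442 without mice 3 and 4). Of 28 genes of IL-6, STAT3 and SOCS signalling, 6 were higher (beside 5.26% of all genes) and 1 lower, with a median of 0.30 that became -0.15 and -0.26 at equal sums. The higher ones numbered 3, 4 and 2 without WT mouse 1, 3 or 4, 4 without Lyn-/-Ifnar1-/- mouse 1, and 0 at equal sums. The TNF receptor Tnfrsf1b stood at 25.8, 26.7, 15.3 and 18.6 RPKM in Lyn-/-Ifnar1-/- mice, 42.5, 36.6, 40.9 and 34.7 RPKM in Lyn-/- mice and 9.39, 10.3, 9.203 and 9.97 RPKM in WT mice (1.08 ± 0.20 (SE), adjusted p = 0.00897 against WT), with each mouse between the other groups. Socs3, a feedback inhibitor, stood at 14.8, 18.7, 12.3 and 10.4 RPKM in Lyn-/-Ifnar1-/- mice, 42.6, 22.6, 23.6 and 17.005 RPKM in Lyn-/- mice and 9.29, 9.303, 8.91 and 7.47 RPKM in WT mice, with all 4 above WT and without a call (adjusted p = 0.0668). Without mice 3 and 4 the counts of these 3 lists were 5 higher and 1 lower, 7 and 0, and 12 and 1.

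Of 22 Toll-like receptor and adaptor genes, 4 were above WT and 4 below, beside 5.26% above and 5.54% below among all genes. The counts were 9 and 2 without mice 3 and 4 and 8 and 2 without mouse 3 alone. They were 1 and 1 without WT mouse 3, 3 and 1 without WT mouse 1, 2 or 4 or Lyn-/-Ifnar1-/- mouse 4, 3 and 2 without Lyn-/-Ifnar1-/- mouse 1. Under both scalings to equal sums they were 0 and 1. Tlr7, the endosomal receptor for single-stranded RNA, stood at 4.01, 4.39, 3.23 and 3.39 RPKM in Lyn-/-Ifnar1-/- mice, 10.7, 7.64, 6.45 and 7.47 RPKM in Lyn-/- mice and 3.61, 2.88, 2.57 and 2.93 RPKM in WT mice. It overlapped WT mice (adjusted p = 0.249) and was lower than in Lyn-/- mice (-0.99 ± 0.19 (SE), adjusted p = 0.0456), a call that was lost without any 1 of the 8 libraries (adjusted p = 0.0634 to 0.14). Tlr9, the receptor for CpG DNA that B cells carry, stood at 1.31, 0.778, 0.536 and 0.407 RPKM in Lyn-/-Ifnar1-/- mice, against 2.56, 2.85, 2.49 and 2.85 RPKM in WT mice (-1.39 ± 0.22 (SE), adjusted p = 0.00493), and Tlr13, a receptor for bacterial ribosomal RNA, at 9.84, 9.67, 6.49 and 6.57 RPKM in Lyn-/-Ifnar1-/- mice, 19.4, 12.8, 11.8 and 12.6 RPKM in Lyn-/- mice and 2.38, 3.12, 3.31 and 2.2004 RPKM in WT mice. For Tlr13 the log2 fold change against WT was 1.399 ± 0.20 (SE), adjusted p = 0.00267.

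**Figure D3:**
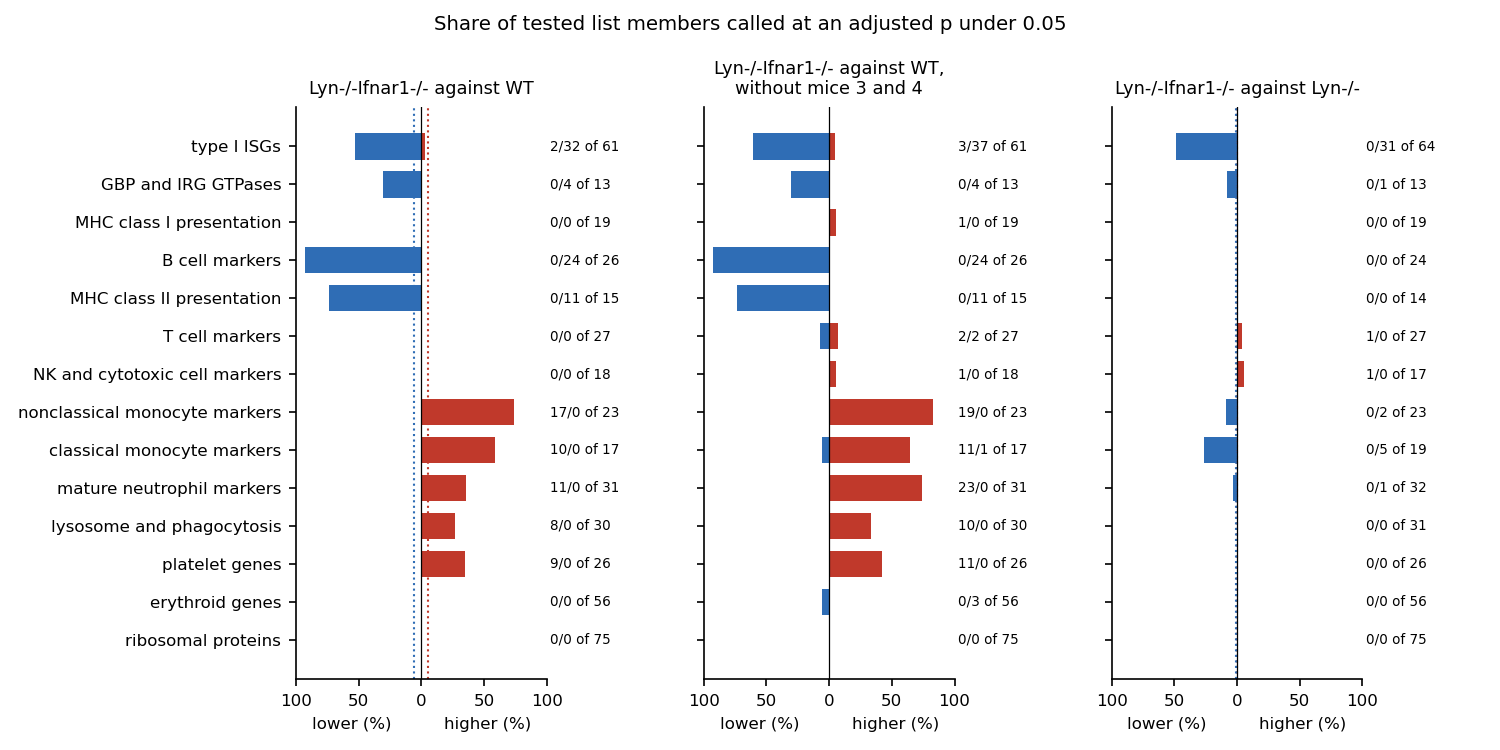
Share of the tested members of 14 gene lists that were higher (red, to the right) or lower (blue, to the left), in percent. Panels show Lyn-/-Ifnar1-/- against WT mice with all libraries (left), without Lyn-/-Ifnar1-/- mice 3 and 4 (middle) and against Lyn-/- mice (right). Numbers give higher/lower of tested. Dotted lines in the left and right panels give the share of all genes. The middle panel has no such lines, and there 692 of all 8238 genes were higher and 545 lower. B cell (24 of 26) and MHC class II genes (11 of 15) are lower and nonclassical monocyte genes (17 of 23) higher than in WT mice under TMM scaling, where equal RPKM sums leave 1 such monocyte gene higher, and 31 of 64 ISGs are lower than in Lyn-/- mice.

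Platelet genes summed to 7037.4, 7460.6, 12774.4 and 18395.4 RPKM in Lyn-/-Ifnar1-/- mice 1 to 4, 4081.1, 6921.2, 5786.2 and 8741.5 RPKM in Lyn-/- mice and 5205.3, 5418.2, 6322.7 and 4870.2 RPKM in WT mice. All 4 Lyn-/-Ifnar1-/- mice lay above WT, and mice 3 and 4 the most. Of 26 platelet genes 9 were higher (beside 5.26% of all genes) and 0 lower than in WT mice with a median of 1.01. Without mice 3 and 4 there were 11 higher with a median of 0.50. No platelet gene was called without any 1 WT mouse or without Lyn-/-Ifnar1-/- mouse 4, 1 was called without mouse 3, 17 without mouse 2 and 0 under the scalings to equal sums. Thbs1, thrombospondin of platelet granules, stood at 30.6, 27.3, 75.2 and 93.4 RPKM in Lyn-/-Ifnar1-/- mice, against 15.9, 15.9, 21.6 and 13.7 RPKM in WT mice (1.55 ± 0.38 (SE), adjusted p = 0.0321), and the integrin chain Itga2b at 208, 182, 353 and 482 RPKM in Lyn-/-Ifnar1-/- mice, against 145, 119, 140.4 and 101 RPKM in WT mice (1.18 ± 0.32 (SE), adjusted p = 0.0434). Mice 3 and 4 were the highest for both and also had the highest erythroid sums, whose part in these values was not tested. Both calls were lost without Lyn-/-Ifnar1-/- mouse 4 or any 1 WT mouse, and that of Itga2b also without mouse 3 (adjusted p = 0.0575 to 0.136).

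Of 56 erythroid genes 0 were called against WT, with a median of 0.80 in all mice and -0.085 without mice 3 and 4, where 3 were lower. The median thus changed sign without these 2 libraries, and 4 and 5 genes were higher without mouse 1 or 2. In Lyn-/- mice 45 of 56 were higher than in WT with a median of 1.31, beside 20.4% of all genes. Between the mutants 0 were called, and without mice 3 and 4 there were 23 lower with a median of -1.33, beside 266 of all 8066 genes. Slc25a37, the iron importer of erythroid mitochondria, stood at 434, 349, 2122 and 963 RPKM in Lyn-/-Ifnar1-/- mice, 563, 916, 666 and 1156 RPKM in Lyn-/- mice and 287, 366, 429 and 256 RPKM in WT mice. Mice 1 and 2 lay in or just above the WT range and mice 3 and 4 within or above the Lyn-/- range. Of 41 genes of OXPHOS complexes II to V, 1 was higher (Cox6b1, 1.03, adjusted p = 0.0372) with a median of 0.55, which was 0.094 without mice 3 and 4 and -0.022 at equal sums outside hemoglobin. The call of Cox6b1 was lost without Lyn-/-Ifnar1-/- mouse 4 or any 1 WT mouse (adjusted p = 0.0869 to 0.102). Of 33 complex I genes 0 were called, with a median of 0.41 that was 0.12 without mice 3 and 4 and -0.055 and -0.17 at equal sums. Lyn-/- mice had 9 of 33 complex I genes and 16 of 40 genes of complexes II to V above WT, beside 20.4% of all genes. The medians were 0.30 and 0.43, and 0 genes of either list lay below WT. Between the mutants 0 of 33 and 0 of 41 were called. The complex I genes summed to 905.5 and 1023.6 RPKM in mice 1 and 2 and to 2585.8 and 1766 RPKM in mice 3 and 4. WT mice had 876.2 to 937.6 RPKM. These sums were highest in mice 3 and 4, as were the erythroid sums and the RPKM of all listed genes. Of mice 1 and 2, mouse 1 had the higher erythroid sum and the lower complex I sum. The part of red blood cell RNA in the complex I sums was not tested.

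**Figure D4:**
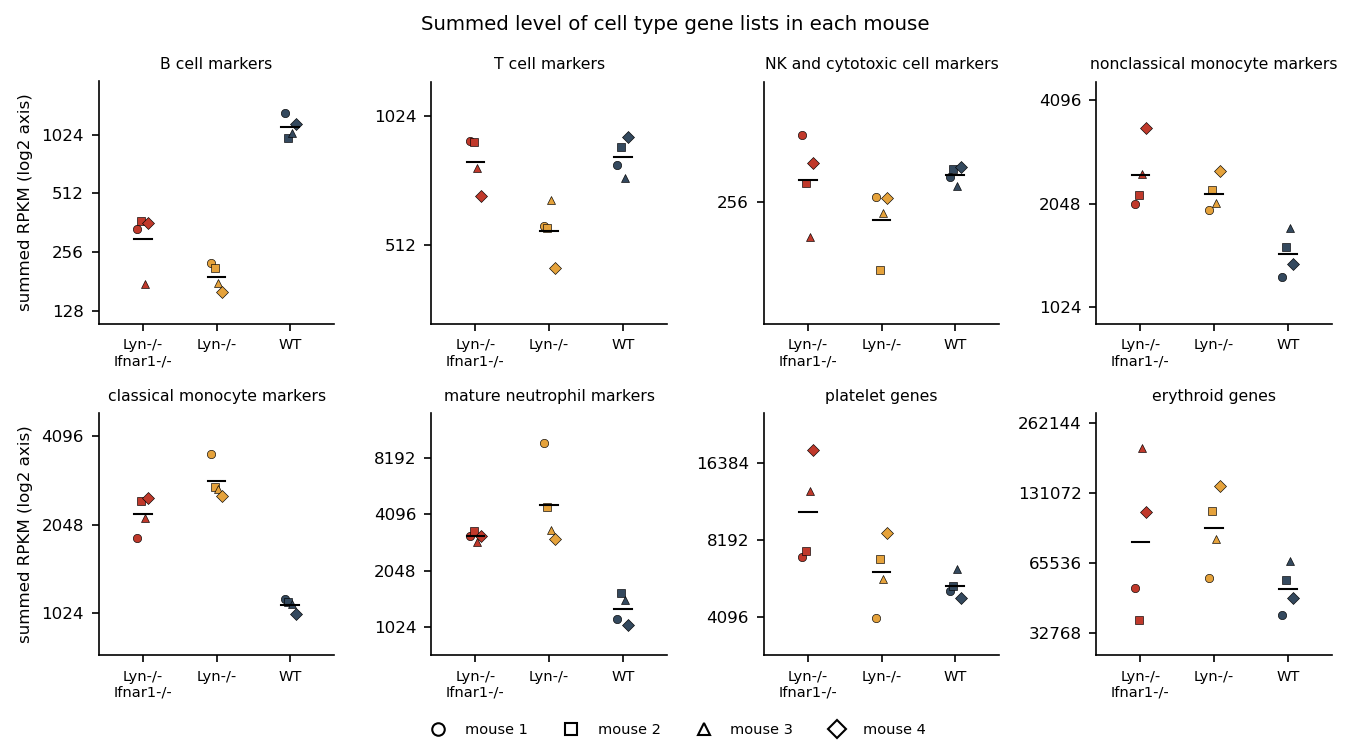
Summed RPKM of the genes of 8 cell type lists in each mouse on a log2 axis, with Lyn-/-Ifnar1-/- mice at the left, Lyn-/- mice in the middle and WT mice at the right; point shapes give the mouse number and bars the mean of the log2 values. B cell sums of Lyn-/-Ifnar1-/- mice (175.7 to 370.2 RPKM) lie below WT (982.3 to 1324.9 RPKM), platelet sums of all 4 lie above all WT mice, and erythroid sums of mice 3 and 4 lie above all WT mice.

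T and NK cell genes gave no call against WT in all Lyn-/-Ifnar1-/- mice. Of 27 T cell markers 0 were called against WT with a median of 0.076 (-0.35 and -0.46 at equal sums), whereas 15 lay below and 0 above WT in Lyn-/- mice. Fewer genes were called in the first comparison as a whole. Among all genes, 5.54% lay below and 5.26% above WT in Lyn-/-Ifnar1-/- mice, and 16.5% below and 20.4% above in Lyn-/- mice. With mice 3 and 4 left out, 2 T cell markers were higher and 2 lower than in WT, and 1 NK and cytotoxic cell marker was higher, beside 692 higher and 545 lower of all 8238 genes. Of 18 NK and cytotoxic cell markers 0 were called against WT with a median of -0.076 (-0.51 and -0.62 at equal sums), and 9 lay below WT in Lyn-/- mice. By an unadjusted p under 0.05, 2503 of all genes differed from WT, so a count of 0 after adjustment does not show equal levels. The 27 T cell markers summed to between 667.6 and 896.6 RPKM in Lyn-/-Ifnar1-/- mice, 452.9 and 652.5 RPKM in Lyn-/- mice and 734.1 and 915.4 RPKM in WT mice.

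Against Lyn-/- mice, 11 genes were higher (0.136%) and 66 lower (0.818%) in Lyn-/-Ifnar1-/- mice, and 31 of the lower ones were ISGs of the list. Without mice 3 and 4 the counts were 49 and 266. They came to 46, 33, 41 and 46 genes in both directions together without Lyn-/- mouse 1, 2, 3 or 4 and to 48 without Lyn-/-Ifnar1-/- mouse 4. Of the 48 genes named here that were called against Lyn-/- mice, 25 kept the call with any 1 library left out. Among the higher ones, Ncr1, the activating receptor NKp46 of NK cells, stood at 8.12, 7.05, 5.08 and 6.76 RPKM in Lyn-/-Ifnar1-/- mice, 1.32, 1.203, 1.18 and 2.39 RPKM in Lyn-/- mice and 4.55, 4.98, 6.36 and 7.32 RPKM in WT mice (1.86 ± 0.23 (SE), adjusted p = 0.00273), so that it overlapped WT mice. Cd5, an inhibitory coreceptor of T cells, stood at 17.9, 13.8, 13.9 and 13.2 RPKM in Lyn-/-Ifnar1-/- mice, 6.79, 7.66, 7.84 and 5.07 RPKM in Lyn-/- mice and 6.65, 11.5, 8.998 and 9.44 RPKM in WT mice (1.06 ± 0.19 (SE), adjusted p = 0.0329), above both other genotypes in each mouse without a call against WT (adjusted p = 0.0508). Igfbp4, a binding protein of insulin-like growth factors, stood at 66.995, 63.1, 95.4 and 73.4 RPKM in Lyn-/-Ifnar1-/- mice, 23.2, 27.3, 31.7 and 16.3 RPKM in Lyn-/- mice and 25.6, 35.2, 31.4 and 38.3 RPKM in WT mice. For Igfbp4 the log2 fold change was 1.604 ± 0.25 (SE), adjusted p = 0.0135 against Lyn-/-, and 1.18 ± 0.20 (SE), adjusted p = 0.00623 against WT, and so was above both. Ddb2, a DNA damage sensor (1.15), and the sodium pump chain Atp1b1 (0.94) were higher than in Lyn-/- mice and overlapped WT mice. The calls of Cd5, Ddb2 and Atp1b1 were lost without any 1 Lyn-/- mouse, without Lyn-/-Ifnar1-/- mouse 1 or 2 and, for Cd5, without mouse 4 (adjusted p up to 0.103) and that of Igfbp4 without Lyn-/- mouse 2 (0.0593). Under the scalings to equal sums 0 genes were higher and 38 and 27 lower. Each higher call against Lyn-/- mice, those of Siglecg and Erdr1 included, was thus lost.

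Ly6a and Lgals9 were below both other genotypes. Ly6a, a surface antigen of lymphocytes that IFN induces, stood at 8.02, 9.81, 8.35 and 8.46 RPKM in Lyn-/-Ifnar1-/- mice, 15.1, 19.8, 16.2 and 17.4 RPKM in Lyn-/- mice and 48.3, 25.001, 20.6 and 22.97 RPKM in WT mice. For Ly6a the log2 fold change was -1.62 ± 0.25 (SE), adjusted p = 0.00442 against WT, and -0.94 ± 0.17 (SE), adjusted p = 0.0292 against Lyn-/-. Lgals9, galectin 9, stood at 17.2, 16.9, 16.4 and 17.8 RPKM in Lyn-/-Ifnar1-/- mice, 51.9, 99.6, 71.4 and 118 RPKM in Lyn-/- mice and 30.6, 29.6, 27.2 and 26.7 RPKM in WT mice. For Lgals9 the log2 fold change was -0.72 ± 0.14 (SE), adjusted p = 0.0105 against WT, and -2.22 ± 0.26 (SE), adjusted p = 0.00213 against Lyn-/-. The 4 Lyn-/-Ifnar1-/- mice were close together for both genes, and the call of Ly6a against Lyn-/- was lost without any 1 Lyn-/- mouse or Lyn-/-Ifnar1-/- mouse 1, 2 or 4 (adjusted p up to 0.13). Erdr1, the largest rise against WT, was above both, at 14.4, 26.9, 15.6 and 23.03 RPKM in Lyn-/-Ifnar1-/- mice, 7.09, 7.36, 6.66 and 8.44 RPKM in Lyn-/- mice and 0.571, 0.7498, 0.428 and 0 RPKM in WT mice. For Erdr1 the log2 fold change was 4.48 ± 0.31 (SE), adjusted p = 8.01e-05 against WT, and 1.33 ± 0.23 (SE), adjusted p = 0.0243 against Lyn-/-. Its call against Lyn-/- was lost without any 1 Lyn-/- mouse or Lyn-/-Ifnar1-/- mouse 2 or 4 (adjusted p up to 0.102). It lies in the pseudoautosomal region of the sex chromosomes, and how reads shared between copies were counted is not given in the sources used here.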

How the data were processed

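Peripheral blood RNA of female mice was collected in RNAprotect tubes, made into strand-specific SureSelect libraries and sequenced on an Illumina NextSeq system. Per the study's methods, the authors made FASTQ files with bcl2fastq, aligned reads with STAR to mm10, counted them with featureCounts and computed RPKM with edgeR after TMM scaling. The deposited table gives RPKM of 9228 genes in 20 libraries, and the annotation and the filter behind its genes are not given in the sources used here. Whole reads were recovered from the RPKM steps for 9227 genes (tolerance 0.05 reads), which gave the depths quoted. Intervals and floors cover counting error only.

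Groups followed the labels. Genes with RPKM of at least 1 in at least 4 of 8 libraries were compared on log2(RPKM + 0.5). The test was that of limma 3.58.1 in R 4.3.3, moderated with a variance trend and with Benjamini-Hochberg adjustment. Single values were compared with two-sided exact permutation tests. Lyn-/-Ifnar1-/- and Lyn-/- libraries were compared in the same way. The limma fit was checked on simulated data with the same spread in both groups, so an unequal spread was not covered.

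The comparison, members and gene lists were chosen with earlier results of these data known. Genes were named by a rule: the 12 largest rises and falls among called genes whose groups do not overlap (unnamed gene models and antigen receptor segments left out), up to 5 genes of each list with the smallest p, listed ISGs at 0 in all Lyn-/-Ifnar1-/- mice, the 3 most abundant genes and the genes of the study. Of the genes in the text, 82 come from this rule and 59 were chosen after their values were seen. Some listed genes are not reported here by name. Alternatives covered the pseudocount, the filter, scaling, the model, voom on recovered reads, a replicate block and leaving out libraries.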

Additional observations from a re-analysis of the deposited data

Results flagged for a closer look

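Among 277 groups of 4 mice, 15 held a mouse set far apart from the other 3 by Dixon's test. Chance gives about 1 in 20 groups, so this count is near the number that chance gives, and the mice below are listed as a description. In Lyn-/-Ifnar1-/- mouse 3, Blnk (0.443 RPKM), Fcer2a (2.37 RPKM) and H2-Aa (77.4 RPKM) lay far below the other 3 mice, and Oas3 (2.76 RPKM) and Apol11a (91.98 RPKM) far above them. This is the library with the highest erythroid sum and the fewest reads per gene. Other Lyn-/-Ifnar1-/- mice far above their group were mouse 4 for Usp18 (0.266 RPKM), mouse 2 for Hmox1 (22.8 RPKM) and mouse 1 for Cd5 (17.9 RPKM). Among WT mice, mouse 1 was far above for Ifi27l1 (42.1 RPKM), Ly6a (48.3 RPKM) and Mefv (0.947 RPKM) and far below for Fpr2 (1.71 RPKM). WT mouse 2 was the 1 WT mouse with Oas1g (0.292 RPKM), WT mouse 3 was far below the others for Oas2 (1.38 RPKM) and WT mouse 4 for Lyz2 (739 RPKM). The flag of Usp18 rests on 1 read and that of Oas1g on 2 reads. All other mice of these groups were at 0, where any read in a single mouse gives the flag.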

How the results depend on the processing

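Scaling, the model and the choice of libraries moved the counts by over 1.5 times. For Lyn-/-Ifnar1-/- against WT mice, equal RPKM sums gave 7 genes higher and 123 lower, equal sums outside hemoglobin 7 and 172, all 20 libraries in 1 model 991 and 820, array weights 719 higher, and leaving out mice 3 and 4 692 higher, against 433 and 456. Leaving out 1 library gave 161 to 540 higher and 205 to 497 lower genes. The 77 genes called against Lyn-/- mice became 38 and 27 with equal sums, 556 in 1 model, 405 with array weights, 315 without mice 3 and 4, and 33 to 108 with 1 library left out. The 3041 genes called between Lyn-/- and WT mice became 1614 at equal sums (803 higher and 811 lower) and 4033 at equal sums outside hemoglobin (631 and 3402). Of nonclassical monocyte markers, 1 was higher at equal sums and 1 at equal sums outside hemoglobin, against 17. The cause of these shifts was not tested. The counts of ISGs and B cell genes that were lower stayed within 1.5 times under every alternative run. The same held for the counts of all genes under both other pseudocounts, either other filter, median-of-ratios scaling, a fit without a variance trend and voom on recovered reads. Of 136 genes tested and named, 109 were called and 0 called values changed sign, while 56 and 52 lost the call under the equal sums.

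A replicate block gave 268 genes higher and 298 lower. Equal numbers did not pair the mice, since same-numbered deviations correlated at 0.12, -0.061, 0.21 and -0.14.

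Values near 1 RPKM rest on few reads, above all in Lyn-/-Ifnar1-/- mouse 3. The alternatives for the comparisons with Lyn-/- mice were chosen after seeing the data.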

Other observations

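Genes beside the deleted ones were counted separately. Of 37 genes tested within 10 Mb of Ifnar1 on chromosome 16, 2 were higher (App and Rcan1) and 5 lower (Brwd1, Donson, Hmgn1, Morc3 and Rwdd2b) in Lyn-/-Ifnar1-/- than in WT mice. This is 18.9% of them, beside 10.8% of all genes tested. The calls of Rcan1, Donson, Morc3 and Rwdd2b were each lost without WT mouse 1 and without at least 1 other library (adjusted p up to 0.132 for Donson). In Lyn-/- mice, which keep Ifnar1, 15 of 39 such genes were above and 8 below WT (59.0%, beside 36.9% of all genes). Between the mutants 1 of 37 was called, the antiviral GTPase Mx1 (-1.56 ± 0.28 (SE), adjusted p = 0.0305), which stood at 0.587, 0.248, 0.625 and 0.317 RPKM in Lyn-/-Ifnar1-/- mice, against 1.76, 4.14, 1.62 and 2.06 RPKM in Lyn-/- mice. That call was lost without any 1 Lyn-/- mouse or Lyn-/-Ifnar1-/- mouse 1, 2 or 4 (adjusted p up to 0.103). Of 15 genes tested within 10 Mb of Lyn on chromosome 4, 0 were called between Lyn-/-Ifnar1-/- and WT mice.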
